A study of Bos taurus with 6 samples.

Results

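The extracellular matrix genes of bovine vaginal epithelial cells (BVECs) were compared between cells incubated with the Lactobacillus strain SQ0048 and cells left without it. The genes were chosen by symbol, as every collagen chain (COL followed by a digit) and 26 secreted matrix proteins, proteoglycans and collagen-modifying enzymes. The symbols named 63 of the 18014 features in the table, and the 38 features that averaged 0.5 FPKM or more across the 6 libraries are the matrix genes described here. They carry 37 symbols, because PLOD1 is listed as 2 features. Of the 38, 16 have a collagen symbol and 22 are among the other proteins and enzymes. COL4A3BP met the rule by its symbol alone. It encodes a ceramide transfer protein that was named for binding a collagen chain, and it is kept apart below.

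Primary BVECs were obtained from vaginal tissue of healthy young cows and grown to a confluent monolayer. In the SQ0048 group (3 libraries) the monolayer was covered for 4 h with the bacteria, suspended at 1000000000 CFU/ml. The control group (3 libraries) had culture medium alone. The study calls the libraries of a group biological replicates, but the sources used here do not say whether they came from separate cultures or cows, so p-values here reflect only library-to-library spread, which may be technical. Levels are in FPKM, fragments of a feature scaled to its exon length and to the number of mapped fragments, so levels of different genes are compared per length.

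Collagens are triple helices of 3 chains. In the endoplasmic reticulum their lysines are hydroxylated by the PLOD enzymes and the folded helix is held by the chaperone HSP47, the product of SERPINH1. After secretion, lysyl oxidases (LOX and the LOXL proteins) crosslink the fibrils. Epithelial cells rest on a basement membrane of type IV collagen, laminin, nidogen and perlecan, while fibrils of types I and III are mostly laid down by fibroblasts of the tissue beneath. Matricellular proteins such as osteopontin, thrombospondin and CYR61 are secreted into the matrix but act mainly as signals to cells.

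The words rose and fell are used where limma, run on log2(FPKM + 0.1) over the 13144 features averaging 0.5 FPKM or more, gave a Benjamini-Hochberg adjusted p under 0.05 (two-sided). Of the 38 matrix genes, 7 rose, 3 fell and 28 did neither. Over all tested features 8.59% rose and 15.8% fell, 24.4% in all, against 18.4% and 7.89% of the matrix genes, 26.3% in all. The total share of the matrix genes is thus close to that of all features. The split between directions depended on the scaling, for 3 matrix genes rose and 7 fell after rescaling to TPM, and 8 rose and 6 fell after quantile normalization, while over all features 755 rose and 2638 fell with TPM and 1335 rose and 1602 fell with quantile normalization. The main counts over all features were 1129 and 2072. The median log2 fold change of the matrix genes was 0.03, within a range of -0.86 to 1.23, and that of all tested features was -0.08. Changes of 2-fold or more at an unadjusted p under 0.05 were found for 5.52% of all features, 2.24% upward and 3.28% downward, and for 1 matrix gene, SERPINH1, upward. The log2 fold change was below 0 in 18 of the 38 matrix genes and in 57.3% of all tested features. The count of matrix genes called dropped to 4, 5 and 6 when control replicates 1, 2 and 3 were left out in turn, and to 5 when SQ0048 replicate 1 or 3 was. Without SQ0048 replicate 2 it was 9. The count over all features dropped as well, from 3201 to 1796, 2244 and 1946 without control replicates 1 to 3. It was 1662, 2966 and 1814 without SQ0048 replicates 1 to 3. The 3 matrix genes that fell were called in each of these runs, so the loss was among the matrix genes that rose. Over all features both directions lost calls, with 550 to 954 higher and 1112 to 2012 lower.

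**Figure D1:**
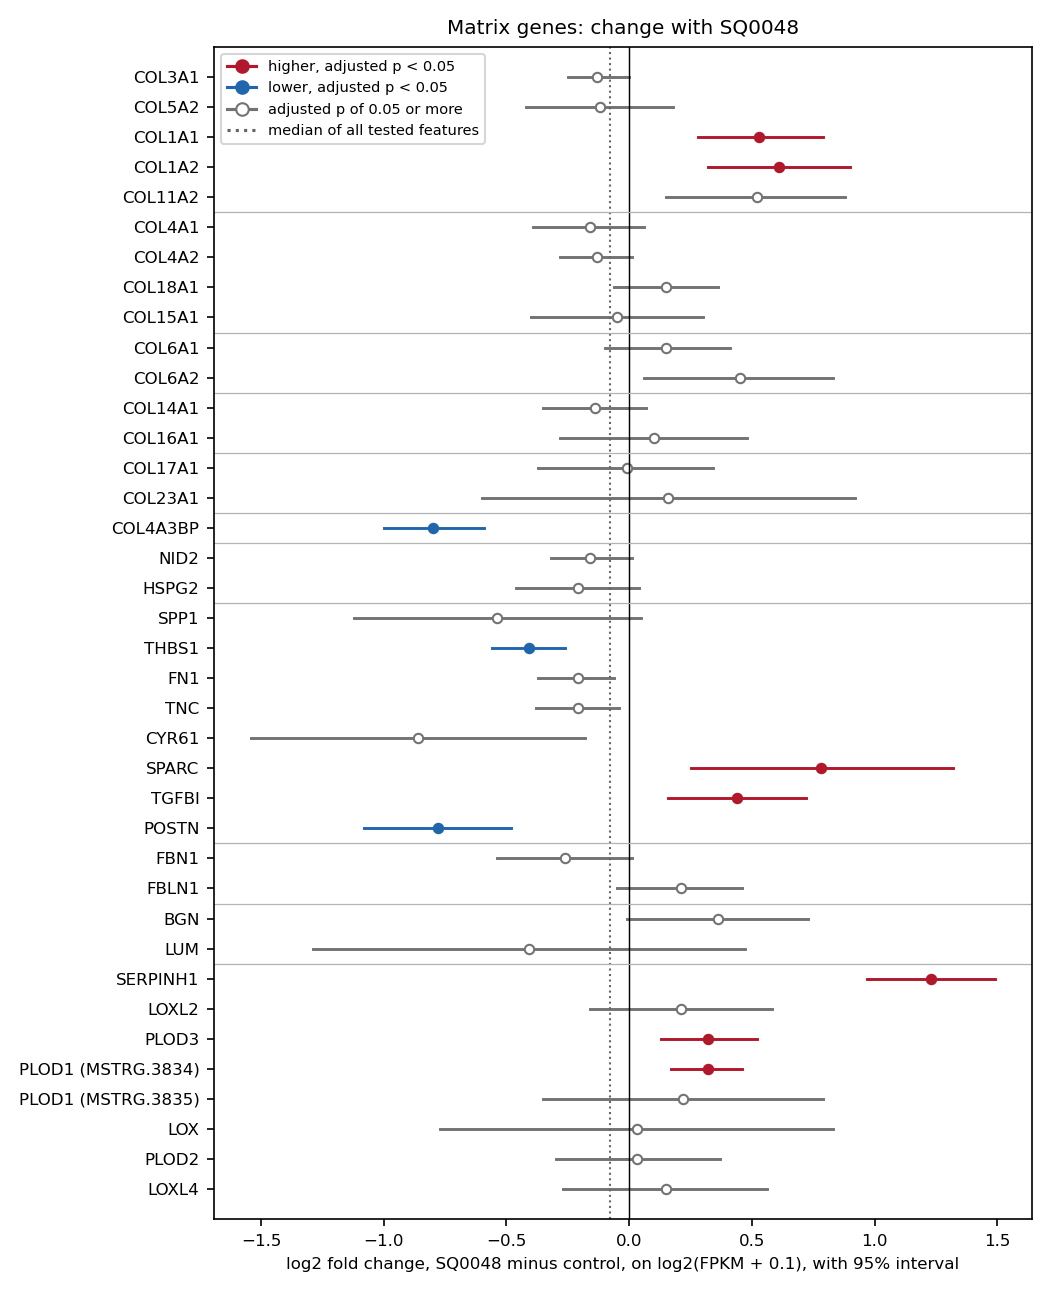
Log2 fold change (SQ0048 minus control, on log2(FPKM + 0.1), horizontal axis) of each of the 38 matrix genes, with its 95% interval from limma and n = 3 libraries per group; grey lines separate the groups of genes by role. SERPINH1 stands farthest to the right at 1.23, and CYR61 farthest to the left at -0.86 with an interval from -1.54 to -0.18.

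By level, 3 matrix genes had a mean of 1000 FPKM or more, 4 of 100 to 1000 FPKM, 11 of 10 to 100 FPKM, 18 of 1 to 10 FPKM and 2 less than that. SPP1 ranked 2 among all features of the table, THBS1 ranked 29 and FN1 ranked 49. The most abundant collagen chain, COL3A1, ranked 1080. The 4 adhesive proteins SPP1, THBS1, FN1 and TNC held 92.3% ± 0.985 of the summed FPKM of the matrix genes in control libraries and 89.5% ± 0.914 in SQ0048 libraries (SD, n = 3 each). All 38 were above 0 in every library. The median coefficient of variation within a group was 8.99% in control libraries and 6.96% in SQ0048 libraries, and it was over 20% for 3 genes in control and 7 genes in SQ0048 libraries.

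**Figure D2:**
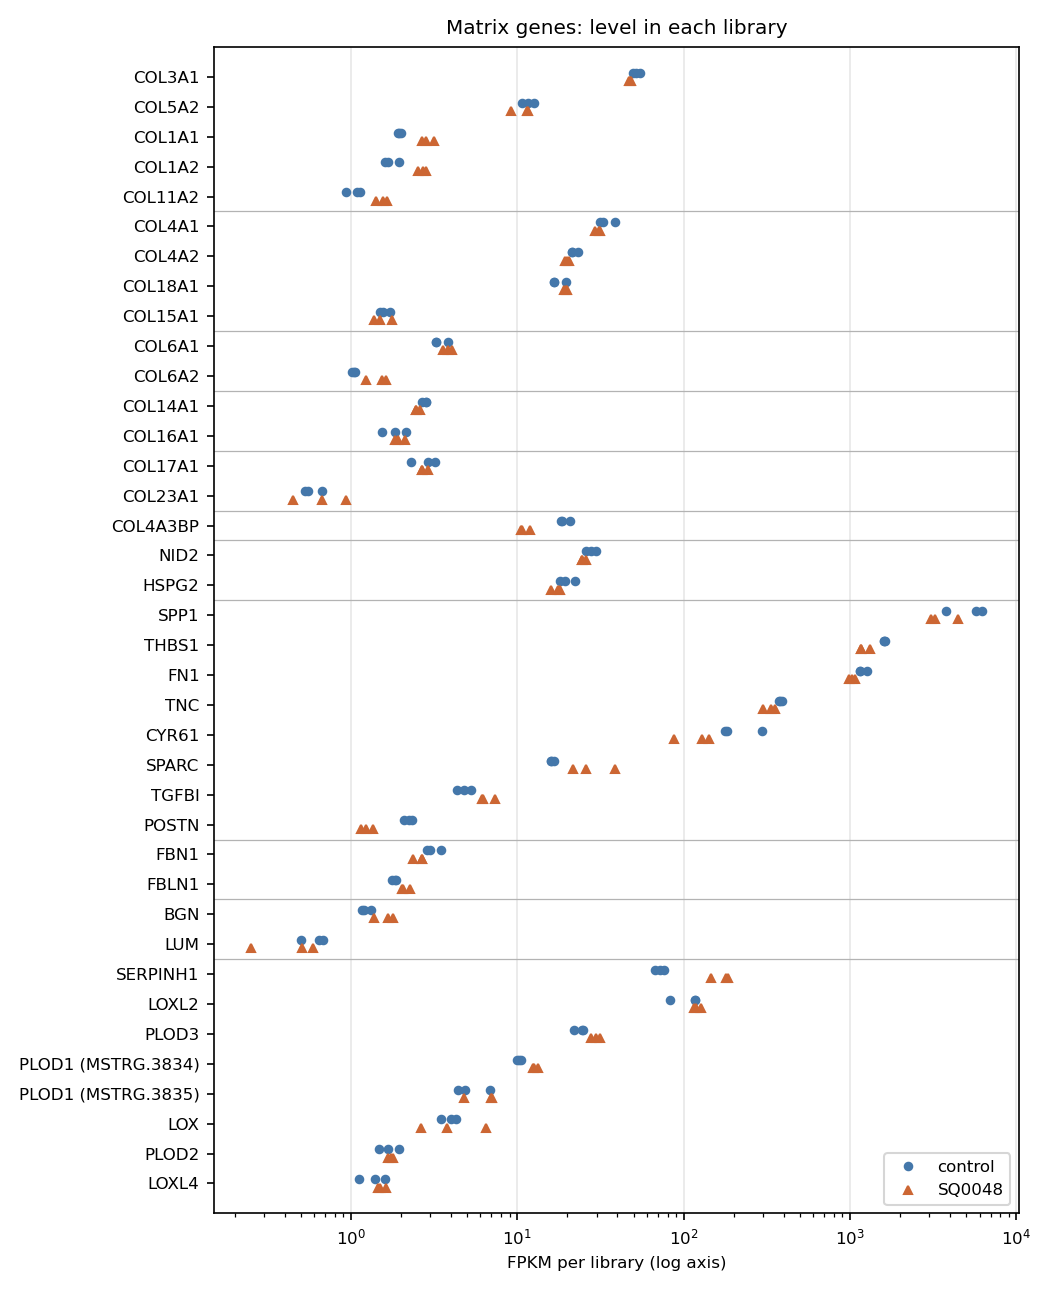
FPKM (horizontal log axis) of each of the 38 matrix genes in the 3 control libraries (circles) and the 3 SQ0048 libraries (triangles), with grey lines between groups of genes by role. Levels run from LUM, with a lowest value of 0.25, to SPP1, with a highest value of 6221.52, and the groups of SERPINH1, SPARC and POSTN do not overlap.

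The share of all FPKM held by the matrix genes was below every control library in each SQ0048 library, while their summed FPKM overlapped between the groups (7570 to 10155 FPKM in control and 6349 to 7877 FPKM in SQ0048 libraries). Their share of all FPKM was 2.16, 2.66 and 2.95% in control replicates 1 to 3 and 2.08, 1.71 and 1.71% in SQ0048 replicates 1 to 3. Without SPP1 it was 1.08, 1.08 and 1.14% in control libraries and 0.901, 0.843 and 0.885% in SQ0048 libraries. The groups do not overlap in either case, and the two-sided exact permutation test gave p = 0.1, the smallest that 3 libraries against 3 allow. The FPKM of all features summed to 343933 to 361055 in control libraries and to 372034 to 378772 in SQ0048 libraries, which is the denominator of these shares. The summed FPKM of the matrix genes without SPP1 was lower as well, at 3873 ± 82.7 and 3281 ± 135 FPKM (SD, n = 3 each, exact permutation p = 0.1). THBS1, FN1 and TNC weigh most in that sum, with group means of 1606 and 1213, 1191 and 1026, and 380 and 329 FPKM. The sum therefore does not describe the matrix genes in general, of which 20 of 38 had a log2 fold change above 0. The summed FPKM of the 15 collagen chains overlapped, at 149 to 167 FPKM in the control group against 148 to 152 FPKM in the SQ0048 group.

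**Figure D3:**
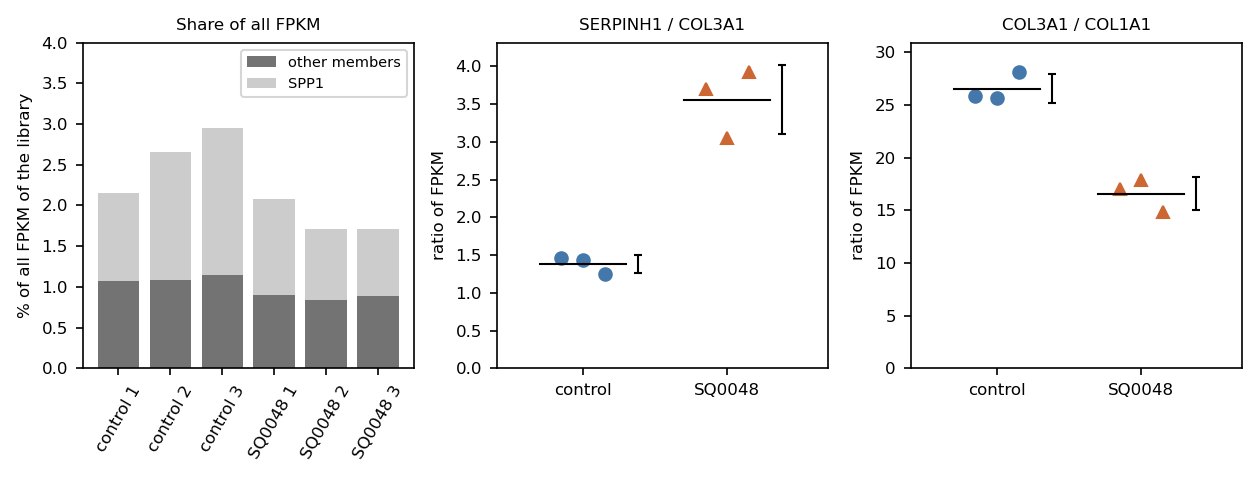
Left, percent of all FPKM of each library held by SPP1 (light) and by the other matrix genes (dark). Middle and right, the FPKM ratios SERPINH1 to COL3A1 and COL3A1 to the larger COL1A1 feature in each library, with a line at the mean and a bar of 1 SD (n = 3 per group). The first ratio is 1.25 to 1.47 in control and 3.05 to 3.92 in SQ0048 libraries.

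Among genes that act on collagen before and after its secretion, SERPINH1 rose most. SERPINH1 (MSTRG.3507), which encodes the collagen chaperone HSP47 and is also a known heat shock gene, was at 76.18, 71.79 and 67.74 FPKM in the control group against 178.56, 145.36 and 184.66 FPKM in the SQ0048 group. Every SQ0048 library was well above every control library. Its log2 fold change was 1.23 (standard error 0.11, limma adjusted p = 0.0025), and its rank by mean level moved from 745 in control to 315 in SQ0048 libraries. The call was kept under all 15 alternatives, with log2 fold changes 1.14 to 1.34. Against COL3A1, the most abundant fibrillar chain, the ratio of SERPINH1 was 1.39 ± 0.12 in control and 3.56 ± 0.452 in SQ0048 libraries (SD, n = 3 each, exact permutation p = 0.1). This and the other FPKM ratios below were chosen after the values were seen.

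PLOD3 and PLOD1 encode lysyl hydroxylases of collagen, and PLOD3 also adds sugars to the hydroxylated lysines. PLOD3 (MSTRG.9259) was at 21.87, 24.94 and 24.35 FPKM in the control group against 29.60, 27.92 and 31.65 FPKM in the SQ0048 group. The larger PLOD1 feature (MSTRG.3834) was at 10.29, 9.91 and 10.52 FPKM in the control group against 12.41, 12.69 and 13.24 FPKM in the SQ0048 group. For both, the groups do not overlap and the log2 fold change was 0.32 (limma adjusted p = 0.035 for PLOD3 and 0.017 for PLOD1). The ratio of PLOD3 to the larger PLOD1 feature was 2.32 ± 0.196 and 2.33 ± 0.108 (SD, n = 3 each). PLOD3 was no longer called once control replicate 1, 2 or 3 or SQ0048 replicate 1 or 3 was left out (limma adjusted p = 0.088, 0.056, 0.076, 0.096 and 0.097), nor was PLOD1 without control replicate 1 or 2 or SQ0048 replicate 3 (limma adjusted p = 0.056, 0.051 and 0.056). After rescaling to TPM neither was called (limma adjusted p = 0.082 and 0.068). Over all settings the adjusted p was 0.024 to 0.097 for PLOD3 and 0.011 to 0.072 for PLOD1.

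The other enzymes did not pass the test. LOXL2, a lysyl oxidase that crosslinks type IV collagen, is the most abundant of them and was at 116.45, 82.37 and 117.70 FPKM in the control group against 118.82, 115.81 and 127.05 FPKM in the SQ0048 group. Control replicate 2 stands low and the other 5 libraries lie close together (log2 fold change 0.21, 95% interval -0.16 to 0.58). LOX, the lysyl oxidase of fibrillar collagen, was at 4.28, 3.50 and 4.02 FPKM in the control group against 3.76, 6.49 and 2.64 FPKM in the SQ0048 group. The highest and the lowest LOX value are thus both in SQ0048 libraries. PLOD2, which hydroxylates the telopeptides of fibrillar collagen, was at 1.7 FPKM ± 0.236 in control and 1.73 FPKM ± 0.0603 in SQ0048 libraries (SD, n = 3 each, 95% interval of the log2 fold change -0.30 to 0.37). LOXL4 and the smaller PLOD1 feature (MSTRG.3835) had log2 fold changes 0.15 and 0.22, with overlapping groups. In all, 3 of the 8 features of the chaperone and crosslinking enzymes rose (37.5%, against 8.59% of all features), and the log2 fold change of each of the 8 was above 0, at 0.03 to 1.23, while 57.3% of all features were below 0. The sign of LOX turned after rescaling to TPM and without control replicate 2 or SQ0048 replicate 2, and that of PLOD2 after rescaling to TPM and without control replicate 2, as given in the account of the alternatives.

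The fibrillar chains differed among themselves. COL1A1 and COL1A2, the chains of type I collagen, rose from low levels, COL1A1 by the larger of its 2 features. COL1A1 (MSTRG.5935) was at 2.01, 1.94 and 1.93 FPKM in the control group against 2.84, 2.66 and 3.16 FPKM in the SQ0048 group (log2 fold change 0.53, standard error 0.10, limma adjusted p = 0.018). COL1A2 (MSTRG.11444) was at 1.68, 1.60 and 1.95 FPKM and 2.83, 2.55 and 2.73 FPKM (log2 fold change 0.61, standard error 0.12, limma adjusted p = 0.017). The smaller COL1A1 feature (MSTRG.5936) was under the minimum level and is listed at 0 in SQ0048 replicates 1 and 2. The sum of both features was 2.58, 2.44 and 2.39 FPKM in the control group against 2.84, 2.66 and 4.62 FPKM in the SQ0048 group, so in SQ0048 replicates 1 and 2 the summed level was close to that of the control group, and the call belongs to the larger feature alone. The groups of the larger COL1A1 feature and those of COL1A2 do not overlap. Without the smaller feature, the ratio of COL1A1 to COL1A2 was 1.13 ± 0.124 in control and 1.07 ± 0.0800 in SQ0048 libraries (SD, n = 3 each, exact permutation p = 0.5). COL1A1 was no longer called once control replicate 1, 2 or 3 or SQ0048 replicate 1 or 3 was left out (limma adjusted p = 0.054, 0.052, 0.056, 0.063 and 0.060, within 0.013 to 0.078 across settings), nor was COL1A2 without control replicate 1 or SQ0048 replicate 1 or 3 (limma adjusted p = 0.059, 0.067 and 0.063, within 0.012 to 0.068 across settings).

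COL3A1 (MSTRG.6458), the chain of type III collagen, was the most abundant collagen chain. It was at 51.97, 49.82 and 54.30 FPKM in the control group against 48.25, 47.63 and 47.09 FPKM in the SQ0048 group. The groups do not overlap, but the difference did not pass the test (log2 fold change -0.13, 95% interval -0.25 to 0.00, limma adjusted p = 0.14). COL3A1 was thus 26.6 ± 1.37 times the level of COL1A1 in control and 16.6 ± 1.54 times in SQ0048 libraries (SD, n = 3 each, exact permutation p = 0.1). COL5A2, a chain of type V collagen that is laid into fibrils of other types, was at 11.7 ± 0.995 FPKM in the control group against 10.8 ± 1.38 FPKM in the SQ0048 group (SD, n = 3 each), with overlapping groups. Its partner chain COL5A1 was under the minimum level, at 0.18 to 0.31 FPKM in the 6 libraries. COL11A2, a chain of the cartilage-type collagen XI, was at 0.93, 1.09 and 1.13 FPKM in the control group against 1.57, 1.41 and 1.65 FPKM in the SQ0048 group. These groups do not overlap and the adjusted p lay just above the threshold (limma adjusted p = 0.054, within 0.025 to 0.15 across settings). It was called with median-of-ratios size factors, after quantile normalization and without a trend (limma adjusted p = 0.039, 0.030 and 0.025).

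Markers of fibroblasts were read beside the type I chains, since the study's primary cultures held a few fibroblasts before they were passaged. In such bulk libraries more cells of a type and more RNA per cell cannot be told apart. Of 14 fibroblast and mesenchymal markers found that are not matrix genes, 9 had a mean under 0.5 FPKM and 5 were tested. Of these 5, 1 was called (20%, against 24.4% of all features). THY1, a surface protein of fibroblasts, was the 1 called, and it rose from 2.46, 2.45 and 2.36 FPKM in control to 4.34, 3.14 and 3.61 FPKM in the SQ0048 group (log2 fold change 0.58, limma adjusted p = 0.030). PRRX1, a mesenchymal transcription factor, was at 23.05, 5.74 and 23.69 FPKM in the control group against 12.34, 13.22 and 11.49 FPKM in the SQ0048 group, with control replicate 2 the lowest of all (log2 fold change -0.25, limma adjusted p = 0.78). SNAI2, a regulator of epithelial-mesenchymal transition, was at 2.97, 1.54 and 1.1 FPKM and 4.56, 1.72 and 4.06 FPKM, with overlapping groups (log2 fold change 0.85, limma adjusted p = 0.27). The growth factor receptor PDGFRA was at 0.13 to 0.20 FPKM in the control group against 0.17 to 0.25 FPKM in the SQ0048 group. PDGFRB was at no more than 0.06 FPKM, and FAP, at 0.01 to 0.04 FPKM in the control group, is listed at 0 in the whole SQ0048 group. VIM and S100A4, which cultured epithelial cells also express, make up most of the list's summed FPKM, which was 1952 to 2081 in control and 2140 to 2258 in SQ0048 libraries. The part of fibroblasts in the type I collagen result was not tested.

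The chains of the basement membrane did not pass the test. COL4A1 (MSTRG.2300) was at 32.89, 31.39 and 38.50 FPKM in the control group against 30.99, 29.19 and 31.26 FPKM in the SQ0048 group. COL4A2 (MSTRG.2301), with which it forms the common type IV helix, was at 21.37, 21.45 and 23.12 FPKM and 20.52, 19.47 and 20.03 FPKM. In both genes each SQ0048 library was below each control library, but by little (log2 fold changes -0.16 and -0.13, limma adjusted p = 0.24 and 0.15). Their ratio was 1.56 ± 0.102 in control and 1.52 ± 0.0328 in SQ0048 libraries (SD, n = 3 each, exact permutation p = 0.8). COL4A1 and COL4A2 are direct neighbours among the coding genes of the RefSeq annotation of ARS-UCD2.0, as are COL3A1 with COL5A2 and COL6A1 with COL6A2. Within each of the 3 pairs the log2 fold changes had the same sign, at -0.16 and -0.13, at -0.13 and -0.12, and at 0.15 and 0.45. None of these chains was called, and how often other neighbouring genes share a sign is not given here. No link between position and change was tested. The chains COL4A3, COL4A4 and COL4A5 of other type IV helices were under the minimum level, with no library above 0.18 FPKM.

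NID2, a nidogen that links laminin to type IV collagen, was at 27.8 ± 1.80 FPKM in the control group against 24.9 ± 0.770 FPKM in the SQ0048 group (SD, n = 3 each). HSPG2, which encodes the proteoglycan perlecan, was at 19.9 ± 2.21 and 17.2 ± 1.14 FPKM. For both, each SQ0048 library was below each control library without passing the test (log2 fold changes -0.16 and -0.21, limma adjusted p = 0.15 and 0.19). NID2 was called after rescaling to TPM (limma adjusted p = 0.042, within 0.042 to 0.46 across settings). The other nidogen, NID1, was nearly undetected, with no library above 0.04 FPKM. COL18A1 and COL15A1, basement membrane collagens that carry heparan or chondroitin sulfate, had overlapping groups and log2 fold changes 0.15 (95% interval -0.06 to 0.36) and -0.05 (95% interval -0.40 to 0.30). The sign of COL15A1 turned with median-of-ratios size factors and quantile normalization, and without control replicate 3 or SQ0048 replicate 3.

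Of the remaining collagens none passed the test. COL6A1 and COL6A2 are chains of the beaded filament collagen VI. COL6A2 was at 1.04, 1.02 and 1.06 FPKM in the control group against 1.63, 1.23 and 1.53 FPKM in the SQ0048 group. Its groups do not overlap (log2 fold change 0.45, limma adjusted p = 0.092, within 0.048 to 0.23 across settings), and it was called when the test was run without a trend (limma adjusted p = 0.048). COL6A1 was at 3.43 ± 0.329 and 3.82 ± 0.25 FPKM (SD, n = 3 each). The third chain of this collagen, COL6A3, was at 0.17 to 0.39 FPKM, under the minimum level. COL14A1 and COL16A1, which sit on the surface of fibrils, had log2 fold changes -0.14 (95% interval -0.35 to 0.07) and 0.10 (95% interval -0.28 to 0.48). The membrane collagens COL17A1, a part of the hemidesmosomes by which epithelial cells hold to the basement membrane, and COL23A1 had log2 fold changes -0.01 (95% interval -0.37 to 0.34) and 0.16 (95% interval -0.60 to 0.92), with overlapping groups. The sign turned after quantile normalization for COL14A1, with median-of-ratios size factors and quantile normalization for COL17A1, and when single libraries were left out for COL16A1, COL17A1 and COL23A1. In all, 2 of the 15 collagen chains rose and 0 fell by limma, and their median log2 fold change was 0.10. An unadjusted p under 0.05 was found for 4 of the 15 and for 38.4% of all tested features. The share called was 13.3%, below the 24.4% of all features, of which 8.59% rose and 15.8% fell.

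Adhesive and matricellular proteins held both directions. Of 8 such genes, 2 rose and 2 fell (25% each, against 8.59% and 15.8% of all features), and 7 had an unadjusted p under 0.05, as did 38.4% of all tested features. THBS1 (MSTRG.866), thrombospondin-1, which binds cells and activates latent TGF-beta, was at 1593.99, 1632.71 and 1590.53 FPKM in the control group against 1310.86, 1162.65 and 1166.26 FPKM in the SQ0048 group. The control libraries lay within a narrow span and each SQ0048 library was below them. Its log2 fold change was -0.41 (standard error 0.06, limma adjusted p = 0.0090). In FPKM this was the second largest difference among the matrix genes, after SPP1, and THBS1 moved from rank 19 to rank 49 in the table. The call stood when any single library was left out. It was lost when the replicate number was added to the test as a block (limma adjusted p = 0.0552).

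POSTN (MSTRG.2138), periostin, an adhesion protein made by fibroblasts and some epithelia, was at 2.23, 2.09 and 2.34 FPKM in the control group against 1.36, 1.24 and 1.15 FPKM in the SQ0048 group. The log2 fold change was -0.78 (standard error 0.12, limma adjusted p = 0.0097), from a level near that of the type I collagen chains, which rose. Like THBS1, POSTN kept its call when any single library was left out and lost it with the replicate block (limma adjusted p = 0.0615).

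SPARC and TGFBI were the matricellular genes that rose. SPARC (MSTRG.13894), osteonectin, which binds collagen and calcium, was at 15.87, 16.02 and 16.57 FPKM in the control group against 25.89, 38.87 and 21.56 FPKM in the SQ0048 group. The control libraries were almost equal, and SQ0048 replicate 2 stood above the other SQ0048 libraries. The log2 fold change was 0.78 (standard error 0.22, limma adjusted p = 0.049). SPARC was no longer called once control replicate 1, 2 or 3 or SQ0048 replicate 1 was left out (limma adjusted p = 0.12, 0.11, 0.12 and 0.11), without a filter, after rescaling to TPM and without a trend (limma adjusted p = 0.064, 0.065 and 0.063, within 0.023 to 0.12 across settings). TGFBI (MSTRG.13769), a TGF-beta-induced matrix protein that binds integrins, was at 4.82, 4.36 and 5.27 FPKM in the control group against 7.36, 6.15 and 6.23 FPKM in the SQ0048 group (log2 fold change 0.44, standard error 0.11, limma adjusted p = 0.039). No control library reached the lowest SQ0048 library, but the call was lost when any 1 of the 6 libraries was left out (limma adjusted p = 0.10, 0.096, 0.057, 0.10, 0.059 and 0.083 for control replicates 1 to 3 and SQ0048 replicates 1 to 3). It was also lost without a filter and with TPM (limma adjusted p = 0.055 and 0.082, within 0.021 to 0.10 across settings).

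**Figure D4:**
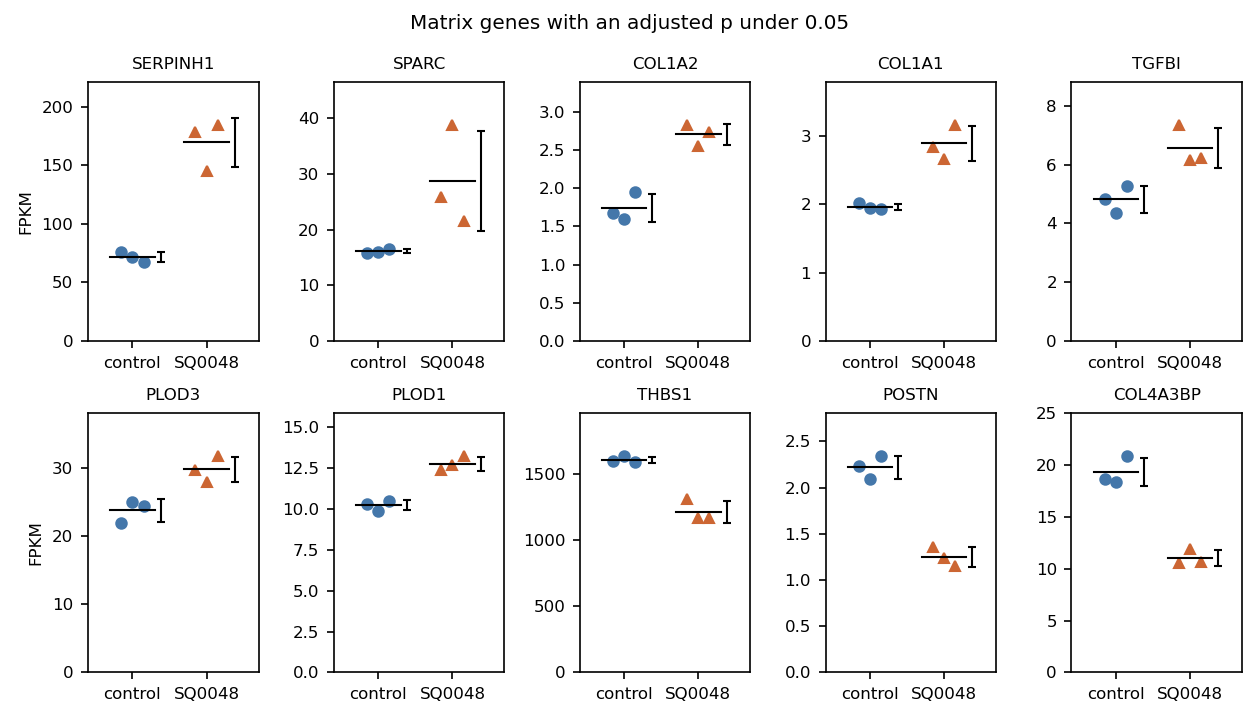
FPKM in each library of the 10 matrix genes with an adjusted p under 0.05, with control libraries as circles, SQ0048 libraries as triangles, a line at the group mean and a bar of 1 SD (n = 3 per group). The groups do not overlap in any of the 10, and the 3 SQ0048 libraries of SPARC spread from 21.56 to 38.87 FPKM; PLOD1 is the larger of its 2 features.

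SPP1, FN1, TNC and CYR61 were lower on average in SQ0048 libraries without passing the test. SPP1 (MSTRG.12860), osteopontin, which binds integrins and CD44, was at 3791.20, 5689.92 and 6221.52 FPKM in the control group against 4465.69, 3222.08 and 3057.24 FPKM in the SQ0048 group. Control replicate 1 was below SQ0048 replicate 1, so the groups overlap, and the 95% interval of the log2 fold change ran from -1.12 to 0.05. FN1 (MSTRG.6753), fibronectin, was at 1153.73, 1149.82 and 1269.31 FPKM in the control group against 1024.09, 980.71 and 1074.48 FPKM in the SQ0048 group. TNC (MSTRG.14510), tenascin-C, which is induced in wounds, was at 372.01, 378.01 and 390.03 FPKM and 334.90, 299.82 and 352.11 FPKM. For FN1 and TNC each SQ0048 library was below each control library, with a log2 fold change of -0.21 for both (limma adjusted p = 0.056 and 0.080). FN1 was called after rescaling to TPM, after quantile normalization and among features averaging 5 FPKM or more (limma adjusted p = 0.030, 0.028 and 0.046, within 0.028 to 0.21 across settings). TNC was called with TPM and quantile normalization (limma adjusted p = 0.033 and 0.037, within 0.033 to 0.28 across settings).

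CYR61 (MSTRG.11031), a target of YAP and of serum response factor that binds integrins, had the most negative log2 fold change of the matrix genes. It was at 177.49, 297.39 and 181.65 FPKM in the control group against 142.28, 129.32 and 87.14 FPKM in the SQ0048 group. Control replicate 2 stood far above the other libraries, and SQ0048 replicate 3 was the lowest. The log2 fold change was -0.86 (standard error 0.27, limma adjusted p = 0.073, within 0.043 to 0.17 across settings), and it was called with TPM and with quantile normalization (limma adjusted p = 0.045 and 0.043). The related CTGF, chosen here after its values were seen, was at 21.56, 20.34 and 72.07 FPKM in the control group against 49.18, 42.18 and 40.26 FPKM in the SQ0048 group, so a single control library exceeded all others.

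Microfibril proteins and proteoglycans did not pass the test. FBN1, fibrillin-1, was at 3.11 ± 0.312 FPKM in the control group against 2.57 ± 0.182 FPKM in the SQ0048 group, and FBLN1, fibulin-1, at 1.83 ± 0.0611 and 2.13 ± 0.134 FPKM (SD, n = 3 each). Their groups do not overlap, with log2 fold changes -0.26 and 0.21 (limma adjusted p = 0.15 and 0.20). BGN, the small proteoglycan biglycan, was at 1.23 ± 0.0850 and 1.62 ± 0.216 FPKM (SD, n = 3 each), again without overlap (log2 fold change 0.36, limma adjusted p = 0.14). LUM, the proteoglycan lumican, overlapped between groups.

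COL4A3BP (MSTRG.618), the ceramide transfer protein that met the rule by its symbol alone, fell from 18.65, 18.36 and 20.84 FPKM in control to 10.57, 11.94 and 10.65 FPKM in the SQ0048 group (log2 fold change -0.80, standard error 0.08, limma adjusted p = 0.0039). Its call was kept under all 15 alternatives. Without it, 7 of 37 matrix genes rose and 2 fell.

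The groups were apart, with no overlap, in 11 matrix genes upward and 13 downward, 24 of the 38 in all. The shares of all tested features were 17.4% and 28.3%, 45.7% in all. This count depended on the scaling, at 23 with TPM, 19 with quantile normalization and 18 with median-of-ratios size factors. The share over all features is not given here for those scalings. Of the 13 downward, 10 averaged 10 FPKM or more, and the other 3, COL14A1, FBN1 and POSTN, were under 3 FPKM. Among all tested features, the groups were apart downward in 1253 of 4613 averaging 10 FPKM or more and in 2469 of 8531 under it. Of 18 matrix genes averaging 10 FPKM or more, 12 had a log2 fold change below 0, with a median of -0.15, and 4 rose and 2 fell (22.2% and 11.1%, against 12.8% and 16.1% of all tested features at that level). Of 20 with a lower mean, 6 had one below 0, with a median of 0.15, and 3 rose and 1 fell (15% and 5%, against 6.33% and 15.6% of all features under it). Over all tested features the medians were -0.01 at or above that level and -0.13 under it. The log2 fold change was below 0 in 2363 of 4613 features at or above it and in 5174 of 8531 under it.

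The level of 0.5 FPKM left out 25 features, 20 of them collagens. The lowest features inside it were LUM, with a mean of 0.528 FPKM, and COL23A1, with 0.635 FPKM. Just outside it were a second COL1A1 feature (MSTRG.5936), with a mean of 0.498 FPKM, and COL26A1, with 0.495 FPKM. That COL1A1 feature was at 0.57, 0.50 and 0.46 FPKM in the control group against 1.46 FPKM in SQ0048 replicate 3, while SQ0048 replicates 1 and 2 are listed at 0. VCAN, the large proteoglycan versican, was at 0.24 to 0.28 FPKM in the control group against 0.15 to 0.18 FPKM in the SQ0048 group. DCN, decorin, and COL7A1, the anchoring fibril collagen of stratified epithelia, did not exceed 0.56 and 0.37 FPKM. FBN2 was listed at 0 in every library. In the limma test without a filter, 24 of these features were tested, 0 were called and 1 had an unadjusted p under 0.05.

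Of 28 other genes of collagen folding, hydroxylation and processing found, 22 were tested, of which 2 rose, 1 fell and 19 did neither. The share called was 13.6%, against 24.4% of all features, and the log2 fold changes ran from -0.54 to 0.89 with a median of 0.11. With median-of-ratios size factors 6 were called. P3H3, a member of the prolyl 3-hydroxylase family, was at 31.8 ± 0.365 FPKM in the control group against 37.5 ± 1.46 FPKM in the SQ0048 group, and PPIB, cyclophilin B, which folds procollagen, was at 380 ± 15.8 and 439 ± 12.8 FPKM (SD, n = 3 each). They rose by 0.24 and 0.21 on the log2 scale (limma adjusted p = 0.026 and 0.034). MIA3, which loads procollagen into transport vesicles, fell from 14.1 ± 0.4 to 11.2 ± 0.197 FPKM (log2 fold change -0.34, limma adjusted p = 0.011). P4HB, a subunit of prolyl 4-hydroxylase and the most abundant of the list, was at 434.49, 418.33 and 434.13 FPKM in the control group against 707.78, 478.90 and 475.56 FPKM in the SQ0048 group, with SQ0048 replicate 1 far above the rest (limma adjusted p = 0.18). The number called ranged from 1 to 5 when single libraries were left out.

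Among 53 other secreted matrix proteins found, 26 were tested, of which 3 rose, 4 fell and 19 did neither, with a median log2 fold change of 0.10. The share called, 26.9%, was close to the 24.4% of all features. TINAGL1, a basement membrane protein related to tubulointerstitial nephritis antigen, was at 93.9 ± 2.69 FPKM in the control group against 125 ± 3.96 FPKM in the SQ0048 group (SD, n = 3 each). ECM1 and IGFBP7, which binds insulin-like growth factors, also rose, by 0.44 and 0.31 on the log2 scale (limma adjusted p = 0.018 and 0.025). ECM2, CRIM1, a transmembrane antagonist of BMP, NPNT, the integrin ligand nephronectin, and LTBP1, which anchors latent TGF-beta in the matrix, fell by 0.80, 0.70, 0.47 and 0.36 on the log2 scale (limma adjusted p = 0.034, 0.0027, 0.046 and 0.016). NOV, a relative of CYR61 and the most abundant of the list, was at 76.90, 75.40 and 75.27 FPKM in the control group against 214.38, 223.48 and 76.75 FPKM in the SQ0048 group. It was thus high in SQ0048 replicates 1 and 2 and at the control level in SQ0048 replicate 3 (limma adjusted p = 0.14). The number called ranged from 2 to 5 when single libraries were left out.

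The cells carried the markers of epithelium. Of 18 epithelial markers found, 16 were tested, 2 rose and 2 fell (12.5% each, against 8.59% and 15.8% of all features). The log2 fold change was above 0 in 9 of the 16 and below 0 in 7. The summed FPKM of the markers was 5106 to 5538 in control and 6022 to 6318 in SQ0048 libraries. Most of that sum came from the keratins KRT19, KRT18, KRT8 and KRT7. KRT19, the most abundant marker, was at 1450 ± 210.0 FPKM and 1688 ± 60.2 FPKM (SD, n = 3 each, limma adjusted p = 0.18). The keratin KRT8 rose from 1118 ± 18.8 to 1400.0 ± 47.8 FPKM (SD, n = 3 each, limma adjusted p = 0.0074), while the epithelial transcription factor GRHL2 fell from 5.59 ± 0.138 to 4.06 ± 0.206 FPKM and DSP, desmoplakin of the desmosomes, from 24.8 ± 1.47 to 20.5 ± 0.855 FPKM (SD, n = 3 each, limma adjusted p = 0.011 and 0.039). The basal markers KRT14 and TP63 averaged under 0.5 FPKM, with no library above 0.51 and 0.43 FPKM. KRT18, which also rose (limma adjusted p = 0.010) and whose protein was stained to identify the cells, was at 1224.01 to 1300.65 FPKM in the control group against 1518.00 to 1615.99 FPKM in the SQ0048 group. Smooth muscle markers DES and MYH11 did not exceed 0.08 FPKM, the endothelial marker PECAM1 did not exceed 0.04 FPKM and the lymphocyte marker CD3E did not exceed 0.10 FPKM in any library, while VWF, of endothelium, rose from 1.53 ± 0.0361 to 2.44 ± 0.0473 FPKM (SD, n = 3 each, limma adjusted p = 0.0089). The smooth muscle gene TAGLN, which cultured epithelial cells can also express, was at 154.33 to 178.78 FPKM over the 6 libraries, and MYOCD, a cofactor of serum response factor, fell from 10.7 ± 0.576 to 5.89 ± 0.371 FPKM (limma adjusted p = 0.0031). Summed over the lists, smooth muscle markers were at 167 to 191 FPKM in the control group against 176 to 186 FPKM in the SQ0048 group. The endothelial sum, at 1.56 to 1.61 and 2.42 to 2.51 FPKM, is almost wholly VWF. Immune markers were at 63.8 to 69.3 and 64.7 to 98.8 FPKM. The most abundant immune marker was LCP1, an actin-bundling protein of leukocytes that cultured epithelial cells can express, at 67.08, 61.33 and 63.20 FPKM against 96.76, 63.76 and 62.36 FPKM, so SQ0048 replicate 1 stood above the rest.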

How the data were processed

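RNA of 6 BVEC libraries was sequenced on an Illumina instrument. By their methods, the authors trimmed reads with Cutadapt, aligned them with Hisat 2.0 and computed FPKM with Cufflinks, while the notes submitted with the data list StringTie 1.3.0, HISAT2 2.0, Bowtie 0.12.2 and the build ARS-UCD1.2. The authors deposited 1 table of FPKM values rounded to 2 decimals, with 1 column per library. It holds no counts, feature lengths or coordinates, so the depth behind each value cannot be had from it and no counting interval is given. The study states mean read numbers per group, not per library, which were not used here. Whether strand was used in quantification is not known here, and overlapping or antisense genes may share reads.

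The main test was limma 3.58.1 in R 4.3.3 (lmFit, then eBayes with trend) on log2(FPKM + 0.1), with condition as the single term. It covered the 13144 features averaging 0.5 FPKM or more, with Benjamini-Hochberg adjustment over all of them. The pseudocount understates the change of low genes. Single values were compared by a two-sided exact permutation test. Python 3.11.15, pandas 2.3.3 and matplotlib 3.10.9 made the tables and figures. The procedure was tested on simulated data. The members and lists were chosen with earlier results of these data known. Named with their values are the matrix genes that passed the test and the 10 most abundant, and of each other list up to 4 genes called per direction and the most abundant. Others are named for their role or, where stated, for their values. All 37 symbols were found in a RefSeq table for ARS-UCD2.0, a later assembly used for gene order alone. Alternatives were pseudocounts 1 and 0.01, a test of all features, a minimum mean of 5 FPKM, TPM, median-of-ratios size factors, quantile normalization, a test without trend, a replicate block and leaving out each library.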

Additional observations from a re-analysis of the deposited data

How the results depend on the processing

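Under 15 alternatives, 2 of the 10 matrix genes called kept their call in each (SERPINH1 and COL4A3BP), 8 lost it in at least 1 and 0 turned sign, while 7 of the 28 others turned sign and 6 were called in at least 1. Pseudocounts of 1 and 0.01 changed no call among the matrix genes. The cause was not tested for any change below. With TPM 3 matrix genes rose and 7 fell, with quantile normalization 8 rose and 6 fell, and with median-of-ratios size factors 8 rose and 3 fell, when 1529 features rose and 1640 fell. The median log2 fold change of the matrix genes was 0.15 with quantile normalization and -0.13 at a mean of at least 5 FPKM, a filter that leaves fewer genes. With that filter 1348 features fell. It left 5 genes of collagen folding and processing called, against 6 with size factors, 1 with TPM and 1 without a trend. Of the fewer matrix genes it kept, 15 had groups that did not overlap, which cannot be set against the count without the filter.

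Leaving out single libraries gave 4 to 9 matrix genes called, 1 to 6 higher and 3 lower, 1 to 2 at 2-fold, and a median of -0.03 to 0.08. Over all features it gave 1662 to 2966 called, 550 to 954 higher and 1112 to 2012 lower. In the lists of collagen processing and other matrix proteins 1 to 5 and 2 to 5 were called. The groups did not overlap in 25 to 26 matrix genes. That count cannot fall when a library is left out, so it does not bear on stability. Signs turned for COL14A1 with quantile normalization (0.01), for COL15A1 and COL17A1 with size factors (0.02 and 0.06) and quantile normalization (0.07 and 0.14), and for LOX and PLOD2 with TPM (-0.06 and -0.05). Without single libraries the log2 fold change was -0.15 to 0.02 for COL15A1, -0.02 to 0.21 for COL16A1, -0.14 to 0.09 for COL17A1, -0.06 to 0.39 for COL23A1, -0.31 to 0.33 for LOX and -0.06 to 0.13 for PLOD2.

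Libraries with the same number did not deviate together over all tested features (correlations of -0.012, 0.0011 and 0.010). Whether they share a culture or a cow cannot be told from this. With the replicate block 2 matrix genes were called, 1 higher and 1 lower, with 847 features in all, 320 higher and 527 lower, and 0 and 2 genes of the lists of collagen processing and other matrix proteins. FPKM without counts gives no limit of detection, and 3 libraries per group limit the precision.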

Other observations

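Annotations carried by the table give a wider view of the matrix and its receptors. Of 36 tested features annotated with the KEGG pathway ECM-receptor interaction, 4 rose and 10 fell (11.1% and 27.8%). Of the 25 that are not among the matrix genes above, 2 rose and 9 fell (8% and 36%). Of 101 features annotated with focal adhesion, the contacts that tie the matrix to the actin skeleton, 13 rose and 30 fell. The background was 8.59% higher and 15.8% lower over all tested features, against 12.9% and 29.7% for focal adhesion. Some other annotations leaned the other way. Of 131 features annotated with the GO term extracellular matrix, 28 rose and 15 fell (21.4% and 11.5%), of 429 with extracellular space 67 rose and 48 fell (15.6% and 11.2%), and of 29 with the KEGG pathway protein digestion and absorption, which holds many collagens, 6 rose and 1 fell (20.7% and 3.45%). Of 31 features annotated with basement membrane, 3 rose and 6 fell (9.68% and 19.4%), which leaned lower, as did the background. Of 16 with collagen trimer, 3 rose (18.8%) and 0 fell by limma. In that set 5 had an unadjusted p under 0.05, as did 38.4% of all tested features. These annotations share features with one another and with the matrix genes.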
